A study of Homo sapiens with 8 samples.

Results

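The transcriptome described here is that of MCF10A cells transfected with a control siRNA (siControl), the 2 control libraries of 8 in the study. They were chosen by their label alone, and the other 6 libraries, from cells given siRNA against LATS1/2, p53 or all of these, are not used below. MCF10A is an immortalised, non-tumorigenic line of human breast epithelium. Polyadenylated RNA was sequenced without strand information, and each control library was made from its own batch of cells, as the labels state. The control group is thus 1 cell line, 1 treatment and 1 library per batch. It holds no untransfected cells, so what transfection itself does is part of every level given here.

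The mammary gland is built from an outer basal layer and an inner luminal layer. Basal cells sit on the basement membrane, carry keratins 5 and 14, P-cadherin, the transcription factor p63 and laminin-binding integrins, and contract as myoepithelium. Luminal cells line the duct, carry keratins 8, 18 and 19 and E-cadherin, and either respond to oestrogen and progesterone or act as progenitors for milk-secreting cells. The control cells were read against these programmes, against the programmes of other tissues, and by the level of each pathway that keeps an epithelial line growing.

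All levels are the deposited log2 values, on which every value under 5 had been set to 5 (the floor, 32 on the linear scale). Values are given for replicate 1 and then replicate 2. Of 29991 entries, 11616 (38.7%) were above the floor in both libraries, and 17925 were at the floor in both. Among entries matched to a protein-coding gene the share was 57.5% (10951 of 19058), and these shares are the background for every count below. The median level above the floor was 9.65, with quartiles of 8.18 and 10.87. The deposited scale does not correct for transcript length, so genes are compared with each other only after subtracting the log2 of the transcript length in kilobases. This level per kilobase could be had for 11195 entries and had a median of 7.90, and every rank below is a rank among those 11195. The files give no read depth. From the even spacing of the low linear values it was estimated at 12.1 and 25.8 M reads, so that the floor stood for about 16 and 33.4 reads. The spacing was less regular in replicate 2, where the regularity (0 to 1) was 0.574 against 0.772 in replicate 1. RPS27, RPS10 and RPS28, ribosomal protein genes that every cell uses, were listed at 5 in both libraries. At the floor therefore means only that a gene was listed at 5, and neither low expression nor silence is shown by it for any gene below.

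The label was checked on 4 markers, and all were above the floor in both libraries. KRT5, the type II keratin of basal cells, was at 15.79 and 16.42. Per kilobase it ranked 7. KRT14, its type I partner in basal filaments, was at 12.97 and 13.83 and ranked 115. TP63, the gene of p63, was at 10.86 and 11.12 and ranked 3655, in the upper part of the range but far below the structural genes of the same cells. CDH1, the gene of E-cadherin and the mark of an epithelial cell, was at 13.04 and 12.80 and ranked 839. KRT5, KRT14 and TP63 were higher in replicate 2 and CDH1 was lower there.

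Basal markers were detected almost without exception, and at high levels. Of 24 basal epithelial markers, 23 were above the floor in both libraries, with a median level of 13.82 against 9.65 for all entries, and with a median per kilobase of 12.06 against 7.90. The exception was NGFR, the gene of the low-affinity nerve growth factor receptor, at the floor in both. S100A2, a calcium-binding protein of basal keratinocytes, was at 15.73 and 16.30 and was the highest per kilobase of the 11195 entries with a length. ITGA6, the alpha 6 integrin that binds laminin, was at 15.43 and 15.37 and ranked 88. COL17A1, the transmembrane collagen of hemidesmosomes, was at 15.06 and 15.44 and ranked 107. Per kilobase the lower end of the list was held by KRT15, with a mean of 7.73, JAG2, a Notch ligand, with 8.11, and the homeobox gene IRX4, with 8.63. The place of KRT15 rests on its longest transcript, 5.237 kb against 1.662 kb for KRT14. On the deposited scale the mean of KRT15, 10.12, was above that of IRX4, 9.97. Replicate 2 was the higher library for 19 of the 23 genes, and the median difference over all 23 was 0.26 log2 units. Over all entries above the floor in both the median difference was -0.005. It was 0.004 at levels of 12 to 14 and 0.07 at 14 to 20.

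**Figure D1:**
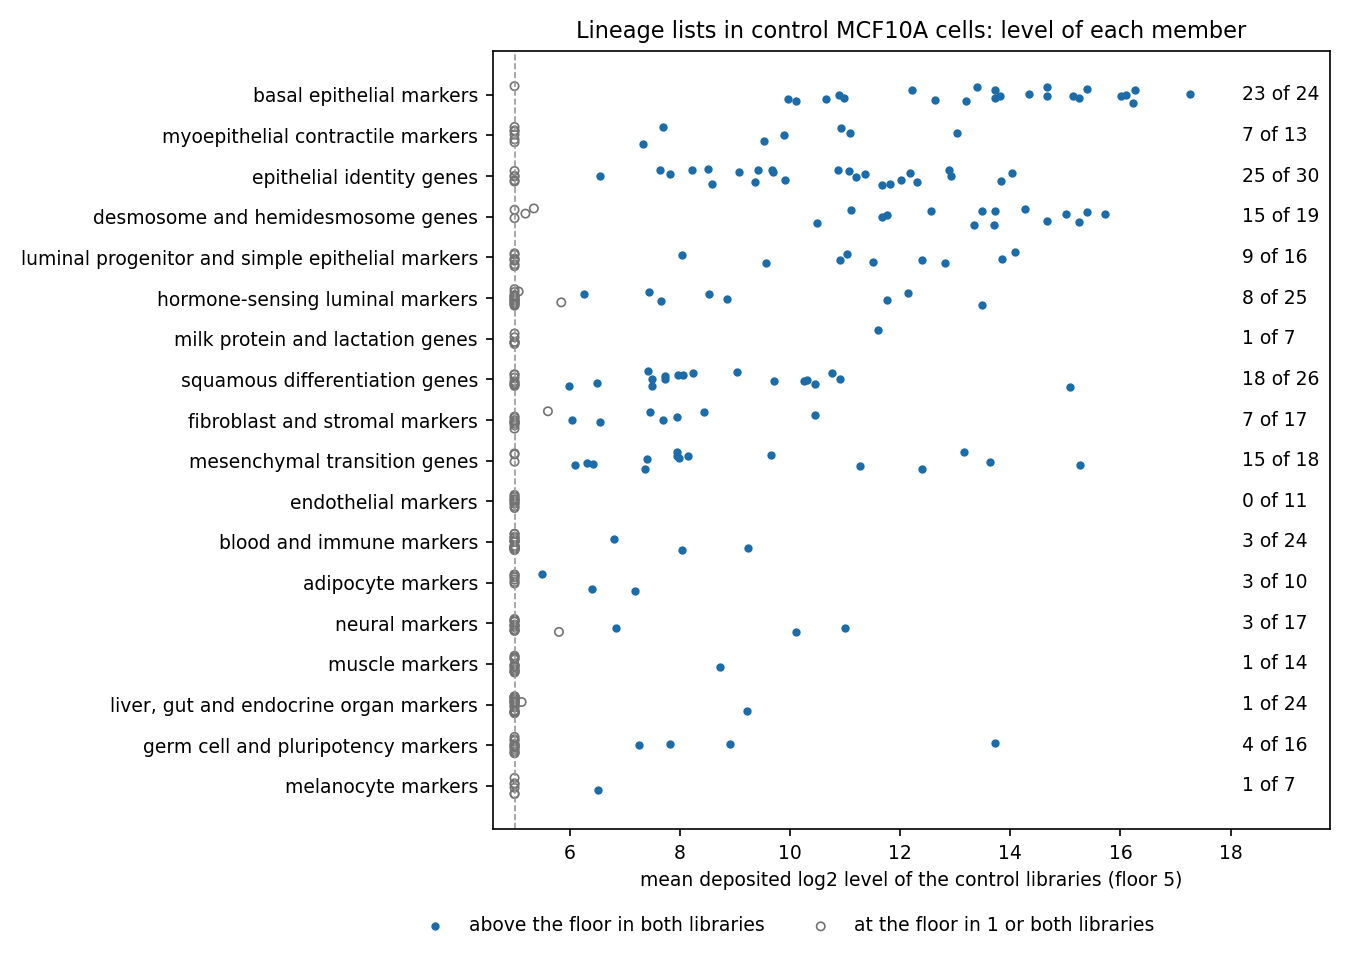
Each point is a gene of a lineage list at its mean deposited log2 level over both control libraries (horizontal axis, floor at 5, dashed line), filled where it was above the floor in both libraries, with the count at the right. Basal markers lie between 9.97 and 17.26 with 23 of 24 above the floor, while 0 of 11 endothelial and 3 of 24 blood markers are above it.

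Promoters are shown for 4 of these marker genes, a pair that was above the floor and a pair of luminal genes that was at it, because each pair holds a promoter with few CG dinucleotides and a promoter rich in them. The sequences are the 100 bases before the RefSeq start of transcription in GRCh38.p14, 5′ to 3′ on the strand of the gene, with CG dinucleotides in capitals. COL17A1 lies on the minus strand at chr10:104085881-104085980, JAG2 on the minus strand at chr14:105168777-105168876, ELF5 on the minus strand at chr11:34511725-34511824, and KIT on the plus strand at chr4:54657857-54657956.
COL17A1: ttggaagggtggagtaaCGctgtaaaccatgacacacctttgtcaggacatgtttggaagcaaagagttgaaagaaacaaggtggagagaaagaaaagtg
JAG2: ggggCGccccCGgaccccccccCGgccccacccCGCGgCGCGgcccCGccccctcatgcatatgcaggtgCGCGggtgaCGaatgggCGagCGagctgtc
ELF5: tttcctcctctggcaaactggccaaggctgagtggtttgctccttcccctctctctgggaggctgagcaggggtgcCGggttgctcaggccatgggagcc
KIT: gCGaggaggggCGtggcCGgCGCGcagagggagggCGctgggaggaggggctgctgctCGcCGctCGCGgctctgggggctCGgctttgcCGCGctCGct
Over the 250 bases before the start, COL17A1 held 1 CG dinucleotide and JAG2 38, and both genes were above the floor. ELF5, a transcription factor of luminal progenitors, held 2, and KIT, their receptor tyrosine kinase, held 34, and both were at the floor in both libraries.

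Across all genes the 2 kinds of promoter were detected at different rates. The count covers 10873 protein-coding entries with a single listed start. With 0 to 4 CG dinucleotides in the 250 bases, 11% (231 of 2102) were above the floor in both libraries. With 5 to 9 it was 28.8% (303 of 1052), with 10 to 19 it was 69.6% (1911 of 2747), and with 20 or more 78.9% (3921 of 4972). The median was 22 CG dinucleotides for entries above the floor in both and 6 for entries at the floor in both. The motif TATAAA, searched on the sense strand in the 60 bases before the start, was present in 1.79% of promoters above the floor and in 9.10% of those at it. It was present in 11 of the 100 entries highest per kilobase but in 3.5% of the 1000 highest. The share was 4.79% of all protein-coding entries counted here, and 3.47% of all RefSeq promoters with a single listed start. On either strand the shares were 2.10% above the floor, 10.2% at the floor and 13 of the highest 100. They were 5.43% of all protein-coding entries counted here and 4.46% of all RefSeq promoters with a single listed start. COL17A1 thus belongs to a class that was mostly at the floor, and KIT to a class that was mostly above it. A match to these letters is a description and was not tied to binding of any factor.

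**Figure D2:**
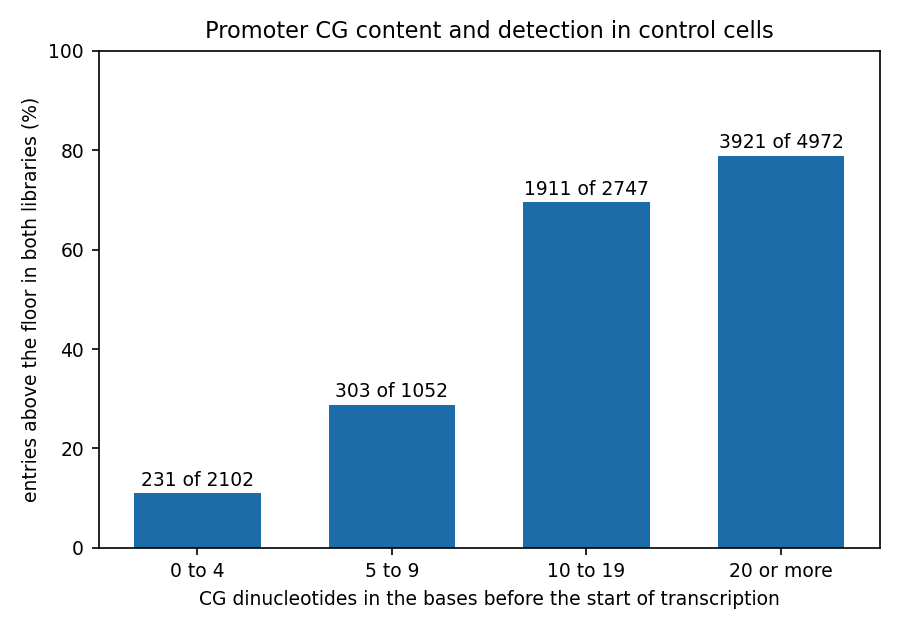
Bars give the percentage of protein-coding entries above the floor in both control libraries (vertical axis) by the number of CG dinucleotides in the 250 bases before the RefSeq start (horizontal axis), with counts above each bar. The share is 11% with 0 to 4 and 78.9% with 20 or more.

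Keratins form paired filaments of a type I and a type II protein, and the pairs mark the kind of epithelium. Of 56 keratin entries, 17 were above the floor in both libraries. Per kilobase the order began with KRT5 at 14.76, KRT81 at 14.14, KRT17 at 13.94, KRT6A at 13.87, KRT7 at 13.27 and KRT14 at 12.67, each a mean of the 2 libraries. KRT81, a keratin of hair and of some breast epithelial lines, was at 15.01 and 15.16 on the deposited scale. Its near-identical neighbour KRT86 was at 7.42 and 7.75, and reads of such copies, as of KRT6A, KRT6B and KRT6C, may be split between them in a way the files do not show. In each library KRT5 exceeded KRT14 per kilobase, by 2.21 and 1.98 log2 units, a mean of 4.26-fold.

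The luminal keratins stood lower per kilobase. KRT18 was at 11.04 and 10.77 and KRT8, its partner, at 9.92 and 9.22. KRT5 exceeded KRT8 per kilobase by 5.82 log2 units in replicate 1 and by 7.15 in replicate 2, a mean of 89.4-fold, and exceeded KRT18 by a mean of 24.6-fold. These are ratios of listed levels, and how reads that match several places were counted is not stated. The distance between KRT5 and KRT8 differed between the batches by over 1 log2 unit, with KRT5 higher and KRT8 lower in replicate 2. KRT19, the keratin that most often marks luminal cells, was at the floor in both. KRT7, a simple-epithelial keratin, was the exception, at 13.96 and 14.20. The hair and inner root sheath keratins other than KRT81 and KRT86, and the keratins KRT1, KRT2 and KRT9 of cornified skin, were at the floor in both. KRT10, also a keratin of squamous differentiation, was above the floor in both, at 8.87 and 9.22.

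**Figure D3:**
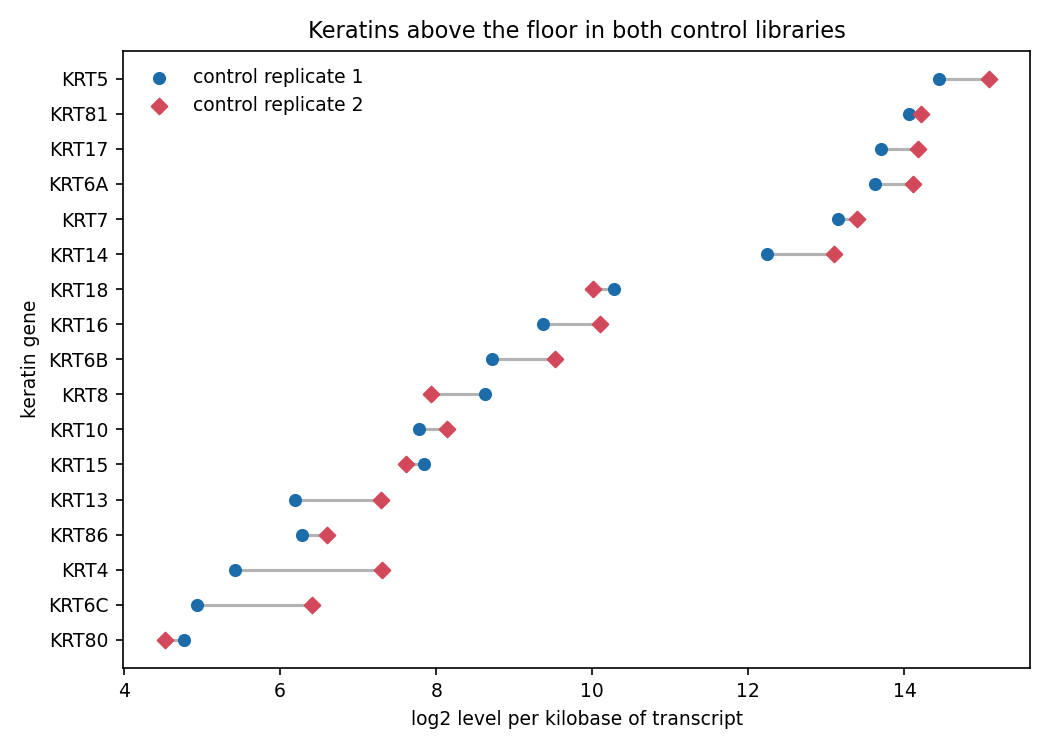
The 17 keratins above the floor in both control libraries are ordered by level per kilobase (horizontal axis, log2), with a circle for replicate 1 and a diamond for replicate 2. KRT5 is highest with a mean of 14.76, KRT8 is at 8.28, and the squamous keratins KRT4 and KRT6C show wide gaps between the libraries.

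Of 13 myoepithelial contractile markers, 7 (53.8%) were above the floor in both libraries, a share near the 57.5% of all protein-coding entries. CALD1, the gene of caldesmon, was at 12.96 and 13.10, and TPM2, beta-tropomyosin, was at 10.88 and 10.98. ACTA2, smooth muscle actin and the usual stain for myoepithelium, was at 7.49 and 7.88 and ranked 7047. CNN1, MYH11, MYLK, ACTG2, DES and OXTR, which encode calponin, smooth muscle myosin, its kinase, gamma smooth muscle actin, desmin and the oxytocin receptor, were at the floor in both. The genes above the floor include those of actin-binding proteins found in many adherent cells.

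Of 16 luminal progenitor and simple epithelial markers, 9 were above the floor in both libraries, a share near that of all protein-coding entries. Their median level was 11.51. SLPI, a secreted protease inhibitor, was at 13.85 in both and ranked 10 per kilobase. CD24, a surface glycoprotein, was at 12.97 and 12.65. ALDH1A3, which makes retinoic acid, was at 11.74 and 11.28, and TFCP2L1, a transcription factor of epithelial ducts, was at 12.37 and 12.41. KRT19, ELF5, KIT, LTF, PIGR, MUC4 and PROM1 were at the floor in both, among them the progenitor regulators ELF5 and KIT whose promoters are printed above.

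Hormone-sensing genes were mostly at the floor. Of 25 markers, 8 were above it in both libraries (32% against 57.5% of protein-coding entries), and 15 were at it in both. ESR1, the oestrogen receptor, was at the floor in replicate 1 and at 5.15 in replicate 2. PGR and PRLR, the receptors of progesterone and prolactin, were at the floor in both, as were the oestrogen-responsive genes TFF1 and GREB1. Members that were above the floor included genes that many epithelia use. XBP1, a factor of the secretory pathway, was at 12.20 and 12.08, and CA12, a carbonic anhydrase, was at 13.45 and 13.54. The luminal factors GATA3, at 7.77 and 7.54, and FOXA1, at 7.74 and 7.13, were low and ranked 9212 and 9333. Of 7 milk protein and lactation genes, XDH, which encodes xanthine dehydrogenase, was above the floor at 11.42 and 11.77, and the casein genes CSN1S1, CSN2 and CSN3 and LALBA were at it.

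Epithelial identity and junction genes were broadly present. Of 30 epithelial identity genes, 25 were above the floor in both libraries. SPINT2, an inhibitor of membrane serine proteases, was at 13.84 and 13.82 and was the highest of them per kilobase. ESRP1, the splicing regulator of epithelial isoforms, was at 11.24 and 11.50. EPCAM, an adhesion molecule of simple epithelia, was at 11.37 and 11.02. GRHL2, OVOL1, CLDN3, CLDN4 and RAB25, which encode 2 epithelial transcription factors, 2 claudins and a trafficking GTPase, were at the floor in both. Of 23 claudins, 5 were above it, led by CLDN1 at 12.21 and 12.14, CLDN12 at 12.11 and 11.97, and CLDN7 at 11.20 and 10.94.

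Cadherins hold neighbouring cells together, and the kind expressed marks the layer. CDH3, P-cadherin of the basal layer, was at 13.79 and 13.84. It exceeded CDH1 per kilobase in both libraries, by 0.74 and 1.03 log2 units, a mean of 1.85-fold. CDH2, the mesenchymal N-cadherin, was at 9.28 and 6.61. It was low in replicate 2, so that CDH1 exceeded it by 3.58 log2 units per kilobase in replicate 1 and by 6.02 in replicate 2. Of 23 cadherins with a CDH symbol, 7 were above the floor in both libraries.

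Desmosomes and hemidesmosomes anchor keratin to the neighbour and to the matrix. Of their 19 genes, 15 were above the floor in both libraries, with a median level of 13.70. ITGB4, ITGA6, COL17A1 and DST are counted here and among the basal markers, so the 2 lists are not separate. PLEC, the linker plectin, was at 15.50 and 15.94, and DSP, desmoplakin, was at 14.99 and 15.03. The desmosomal cadherins were DSG2 at 14.38 and 14.13, DSG3 at 13.58 and 13.40 and DSC3 at 13.44 and 13.25. DSC1 and DSG4 were at the floor in both, and DSG1 and PKP1, which are used in the upper layers of stratified epithelium, were at the floor in replicate 1 and at 5.39 and 5.70 in replicate 2. Below the cells, LAMB3 and LAMA3 encode the beta and alpha chains of the laminin that hemidesmosomes bind. Their levels were 16.13 and 16.39 for LAMB3, and 16.09 and 16.36 for LAMA3. Per kilobase LAMB3 ranked 20 and exceeded LAMA3 by 1.35 and 1.34 log2 units (2.54-fold). This gap rests on the lengths taken, 10.661 kb for LAMA3 and 4.305 kb for LAMB3, the longest transcript of each. Which LAMA3 transcript the cells use was not examined, so unequal levels of these chains are not shown.

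Of 23 laminin and basement membrane genes, 16 were above the floor in both libraries. The other laminin chains included LAMB1 at 14.59 and 14.46, LAMC1 at 14.64 and 14.57 and LAMA5 at 13.46 and 13.62, while LAMA2, LAMA4, LAMB4 and LAMC3 were at the floor in both. Collagen IV genes COL4A1 and COL4A2 were at 12.19 and 12.13 and at 12.28 and 12.33. NID1 and NID2, whose nidogens link laminin to collagen IV, were at the floor in both. Among the receptors, ITGB1 was at 15.59 and 15.24, ITGB4 at 14.46 and 14.88 and ITGA3 at 14.33 and 14.36. Integrin subunits of blood cells, ITGAL, ITGAM and ITGAX, were at the floor in both. FN1, fibronectin, was at 14.97 and 15.55.

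Squamous differentiation genes were present at low to high levels and differed between the libraries. Of 26 genes, 18 were above the floor in both, with a median level of 8.15. KRT6A, a keratin of activated and stratified epithelium, was at 14.84 and 15.32, and CSTA, the protease inhibitor cystatin A of the cornified envelope, was at 10.58 and 10.96. SPRR1B, an envelope precursor, was at 10.41 and 11.42. IVL, involucrin, was at 7.28 and 8.17, and FLG, filaggrin, was at 6.29 and 6.72. The terminal genes KRT1, KRT2, LOR, KRTDAP and LCE3D were at the floor in both, while KRT10 was above it at 8.87 and 9.22. Of the 18 genes, 15 were higher in replicate 2 and 7 of them by over 1 log2 unit, and the median difference over all 18 was 0.78 log2 units. Among all entries above the floor in both libraries 35 of 11616 (0.301%) were higher in replicate 2 by over 1 log2 unit. That share depends on level. In either direction, 2.58% of entries at levels of 7 to 8 differed by over 1 log2 unit, and 0.83% at 8 to 10. The list was chosen with earlier results of these data known, so these counts describe its members and test nothing.

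Genes of the mesenchymal transition were present beside the epithelial ones. Of 18, 15 were above the floor in both libraries, and 11 were above 7 in both. Their median level was low, at 7.98 against 9.65 for all entries, and at 7.22 against 7.90 per kilobase. VIM, the intermediate filament of mesenchymal cells, was at 13.14 and 13.16 and ranked 185, and KRT5 exceeded it per kilobase by a mean of 5.71-fold. SNAI2, the repressor Slug that basal breast cells also use, was at 11.08 and 11.45. ZEB1, at 7.61 and 7.14, and ZEB2, at 6.72 and 6.11, were low and ranked 10422 and 11103, and SNAI1 was at the floor in both. SPARC, a matrix protein, was at 10.75 and 8.57, lower by over 2 log2 units in replicate 2. Of 17 fibroblast and stromal markers, 7 were above the floor in both libraries, while COL1A2, COL3A1, PDGFRA, PDGFRB, LUM and THY1 were at it. Of the 7, DCN, decorin, was at 9.86 and 7.02, again lower in replicate 2, and FAP was at 10.78 and 10.11. COL1A1, a collagen I gene, was at 7.32 and 7.61, and the others were COL6A3, TWIST1, TWIST2 and ACTA2.

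Markers of other lineages were mostly at the floor. All 11 endothelial markers, among them PECAM1, CDH5 and KDR, and all 371 olfactory receptor entries were at the floor in both libraries. Of 24 blood and immune markers, 21 were at it, including PTPRC, CD3E, MS4A1 and HBB, and the 3 above it were CD68, CD14 and CSF1R, with CD68 at 9.14 and 9.35. The counts above the floor were 3 of 10 for adipocyte, 3 of 17 for neural, 1 of 14 for muscle, 1 of 24 for liver, gut and endocrine organ (2 without replicate 1), 4 of 16 for germ cell and pluripotency and 1 of 7 for melanocyte markers. Why members of these lists were above the floor was not tested. TUBB3, a beta-tubulin, was at 10.75 and 11.25, and MYC, listed with the pluripotency factors, was at 13.60 and 13.85. SERPINA1, alpha-1-antitrypsin of the liver, was at 10.44 and 8.02.

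The receptors of the EGF family were unequal. EGFR was at 13.56 and 13.88, ERBB2 at 11.22 and 11.43 and ERBB3 at 8.93 and 8.77. ERBB4 was at the floor in both libraries. Per kilobase EGFR exceeded ERBB2 by 1.31 and 1.42 log2 units (2.57-fold) and ERBB3 by 3.90 and 4.37 (17.6-fold), so the order was the same in both batches. EGFR is the receptor of the EGF that this line is commonly given in culture.

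Genes of several EGFR ligands were above the floor. AREG, amphiregulin, was at 13.79 and 14.27 and ranked 39. EPGN, epigen, was at 10.97 and 11.31, TGFA at 12.87 and 12.91, and HBEGF at 10.93 and 10.92. Per kilobase AREG exceeded TGFA by 2.72 and 3.15 log2 units, a mean of 7.64-fold. EREG, epiregulin, was the ligand that differed most between the libraries, at 11.24 and 10.48. NRG1, which binds ERBB3 and ERBB4, was at 8.92 and 9.45. EGF and NRG3 were at the floor in both. In the whole list 13 of 18 were above the floor in both. ADAM17, the protease that sheds several of these ligands, was at 11.29 and 10.96, and the feedback inhibitor ERRFI1 was at 10.82 and 10.18.

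**Figure D4:**
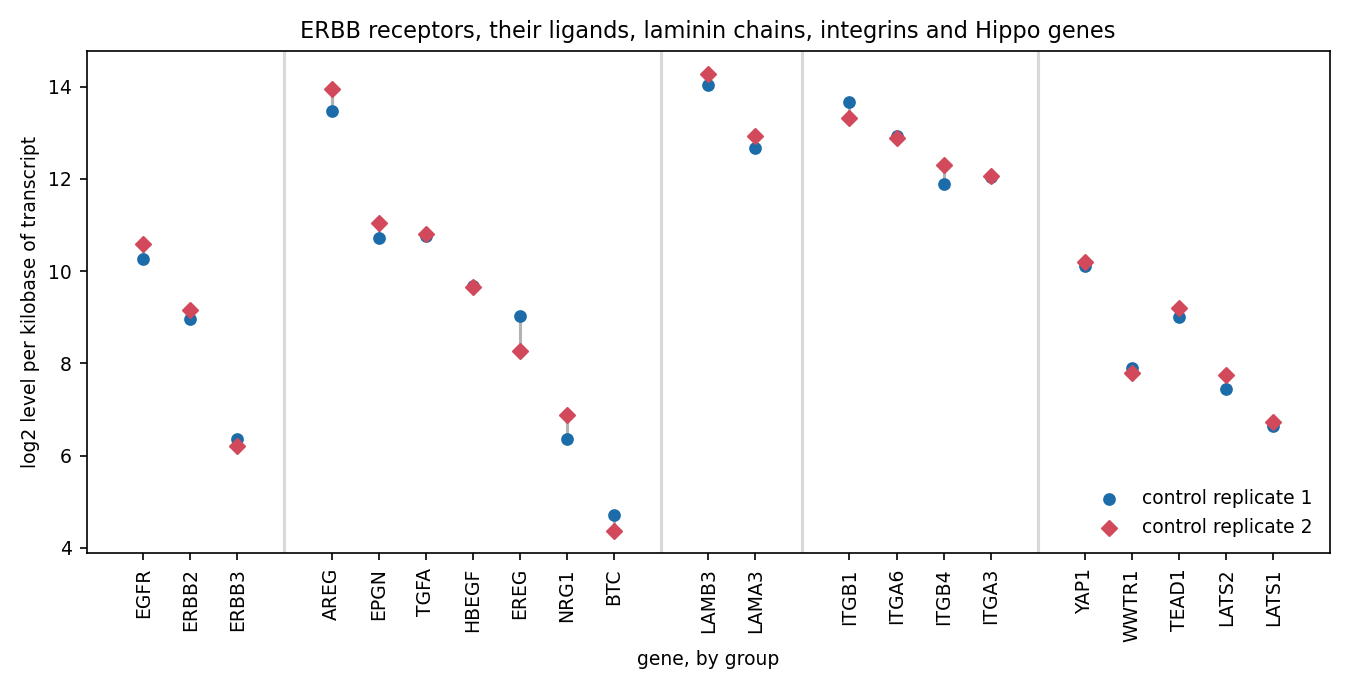
Level per kilobase (vertical axis, log2) of ERBB receptors, EGF-family ligands, chains of the hemidesmosomal laminin, integrins and Hippo genes, with a circle for replicate 1 and a diamond for replicate 2. AREG has a mean of 13.72 against 10.79 for TGFA, EGFR is above ERBB2 and ERBB3 in both libraries, and LATS2 is above LATS1.

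Of 43 other growth factor and hormone receptors, 24 were above the floor in both libraries. EPHA2, an ephrin receptor, was at 13.11 and 13.37 and was the highest of them per kilobase. MET, the receptor of hepatocyte growth factor, was at 13.81 and 13.82, and AXL was at 12.26 and 12.55. IGF1R, at 12.17 and 12.13, exceeded the insulin receptor INSR, at 10.12 and 10.21, by a mean of 2.90-fold per kilobase. NR3C1, the glucocorticoid receptor, was at 11.54 and 11.48 and VDR, the vitamin D receptor, at 10.81 and 11.04. PDGFRA, PDGFRB, KDR, RET, NTRK2 and NTRK3 were at the floor in both.

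The Hippo pathway is a kinase cascade in which MST kinases activate LATS kinases, which hold the co-activators YAP and TAZ out of the nucleus. Of 34 Hippo pathway genes, 30 were above the floor in both libraries, with a median level of 10.37. Of the kinases, LATS1 was at 9.54 and 9.64 and LATS2 at 9.92 and 10.22. Per kilobase LATS2 exceeded LATS1 by 0.82 and 1.03 log2 units, a mean of 1.90-fold. STK4 and STK3, the MST kinases, were at 10.95 and 11.09 and at 9.69 and 9.93. NF2, the upstream activator merlin, was at 10.58 and 11.02.

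YAP1 was at 12.54 and 12.63 and exceeded WWTR1, the gene of TAZ, at 10.22 and 10.13, by 2.22 and 2.40 log2 units per kilobase, a mean of 4.96-fold. TEAD1, their DNA-binding partner, was at 12.09 and 12.28. AMOT, VGLL1 and VGLL2 were at the floor in both. Of 30 genes known as YAP/TAZ targets, 29 were above the floor in both, with a median level of 10.92. Besides AREG they were led per kilobase by F3, tissue factor, at 14.09 and 14.01, and NT5E, which makes adenosine, at 14.08 and 14.21. Per kilobase the usual readouts were lower, with means of 9.26 for CYR61 and 7.23 for CTGF. Their deposited levels were CYR61 at 10.51 and 10.39 and CTGF at 8.46 and 8.45, and ANKRD1 was at the floor in both. INHBA, of activin A, was the target that differed most between the libraries, at 10.69 and 11.75.

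Of 40 p53 and RB checkpoint genes, 37 were above the floor in both libraries, with a median level of 10.25. PERP, an effector of p53 that also belongs to desmosomes, was at 15.33 and 15.13, and TNFRSF10B, a death receptor, at 14.21 and 14.34. MDM2, the ligase that limits p53, was at 12.34 and 12.20, and CDKN1A, a cell cycle inhibitor, was at 12.29 and 12.83. RB1 was at 11.51 and 11.49. The 3 genes at the floor in both were TP73, CDKN2A and CDKN2B.

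CDKN2A and CDKN2B, which encode inhibitors of CDK4 and CDK6, lie side by side on chromosome 9. MCF10A is known to lack this locus. In RefSeq gene order the run IFNE, MTAP, CDKN2A, CDKN2B and DMRTA1 was at the floor in both libraries, 5 of 5 genes. MTAP, a salvage enzyme that most cells express, was among them. The 16 interferon genes of the same stretch, IFNE among them, were all at the floor, and such genes are mostly off in unstimulated cells. KLHL9, which lies among them, was at 9.34 and 9.06 and was the nearest entry above the floor on the IFNE side of the run. On the DMRTA1 side the nearest was ELAVL2, at 8.19 and 8.21. KIAA1797, beyond the interferon genes, was at 10.01 and 9.92. DNA was not measured, and no extent of a loss is drawn from these values.

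Cell cycle genes were detected throughout. All 30 S phase genes and all 30 G2/M genes were above the floor in both libraries, with median levels of 10.13 and 11.47. MCM7, of the replicative helicase, was at 12.57 and 12.88 and PCNA, the sliding clamp, at 11.37 and 11.38. ANLN, which builds the cleavage furrow, was at 14.05 and 14.06, TOP2A at 13.50 and 13.22 and MKI67, the proliferation marker, at 14.27 and 14.18. MYC was the highest of 60 epithelial transcription factors per kilobase and exceeded its partner MAX by a mean of 21.1-fold. Of 13 telomere maintenance genes, 11 were above the floor in both. TERT, the catalytic subunit of telomerase, was at 5.24 in replicate 1 and at the floor in replicate 2, and TERC, its RNA, which carries no long poly(A) tail, was at the floor.

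In the Notch pathway 17 of 23 genes were above the floor in both libraries. NOTCH2 was at 13.53 and 13.49 and NOTCH1 at 12.13 and 12.48, and per kilobase NOTCH2 exceeded NOTCH1 by a mean of 1.88-fold. The ligand JAG1 was at 12.57 and 12.63, above JAG2 in both libraries per kilobase. The target HES1 was at 9.28 and 9.01, HEY1 was at 5.17 in replicate 1 alone, and HEY2 was at the floor in both.

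In the Wnt pathway 25 of 43 genes were above the floor in both libraries, and the highest per kilobase were an inhibitor and a receptor. SFRP1, a secreted antagonist, was at 14.74 and 14.66 and ranked 132, and DKK1, another, was at 11.47 and 11.43. FZD6 was the highest receptor per kilobase, at 13.49 and 13.24. Of the ligands, WNT10B was at 8.45 and 8.59, WNT7A at 7.83 and 7.69, and 10 genes, among them WNT1, WNT3A and WNT4, were at the floor in both. WNT5A was at 8.57 and 5.77, and its level in replicate 2 was close to the floor. AXIN2 and LGR5, common readouts of the pathway, were at the floor in both.

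Of 37 TGF-beta and BMP pathway genes, 28 were above the floor in both libraries. TGFBR2 was at 14.24 and 13.89 and ranked 281, and TGFBR1 was at 11.30 and 10.96. TGFBI, a matrix protein that TGF-beta induces, was at 16.40 and 16.08 and ranked 8. The ligand TGFB1 was at 10.57 and 11.13, and BMP4, BMP7 and the antagonists NOG and GREM1 were at the floor in both. ID1, a target of BMP signalling, was at 11.48 and 11.50.

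Among 60 epithelial transcription factors, 49 were above the floor in both libraries. KLF5, a zinc finger factor of proliferating epithelium, was at 12.22 and 12.41. FOSL1 was at 11.06 and 11.83 and exceeded FOS, at 9.98 and 9.80, by 1.45 and 2.40 log2 units per kilobase. RUNX1 was at 11.04 and 10.93 while RUNX3 was at the floor in both. SOX genes were represented by 6 of 19, with SOX7 at 10.68 and 10.93 and SOX15 at 8.86 and 9.13, and with SOX2 and SOX10 at the floor. HOX genes record position along the body axis. Above the floor were 7 of 11 HOXA, 5 of 10 HOXB, 5 of 9 HOXC and 0 of 9 HOXD genes, with HOXA5 the highest per kilobase at 8.62 and 8.59. Many of these lay just over the floor. Above 7 in both libraries were 1 HOXB gene and 1 HOXC gene.

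Genes of innate defence were uneven. Of 30 interferon-stimulated genes, 12 were above the floor in both libraries, 7 in replicate 1 alone, and 11 in neither. Without replicate 2 the count is thus 19. Among all 29991 entries, 310 were above the floor in replicate 1 alone and 140 in replicate 2 alone. IFITM3, which blocks viral entry, was at 12.53 and 12.38, while ISG15, IFIT1, MX1 and RSAD2 were at the floor in both. The widest of the 7 was BST2, at 9.34 in replicate 1. Of the 12 genes above the floor in both, 11 were lower in replicate 2, with a median difference of -0.34 over the 12. Over all entries above the floor in both the median difference was -0.005, and the share lower in replicate 2 was not counted. The antigen presentation genes showed the same direction, with 9 of 12 lower. B2M, the light chain of class I molecules, was at 14.89 and 14.26. HLA-C was at 12.85 and 12.64 and HLA-B at 10.96 and 8.56. HLA genes are near-identical copies and vary between people, so reads may be split or lost among them. The class II genes HLA-DRA, HLA-DRB1, HLA-DPA1 and HLA-DQA1, and CIITA, which drives them, were at the floor in both.

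Of 30 epithelial cytokines and chemokines, 16 were above the floor in both libraries, with a median level of 9.85. CSF3, the granulocyte growth factor, was at 13.70 and 12.75 and ranked 138. CXCL1, a neutrophil attractant, was at 13.12 and 11.31, and IL8, another, was at 12.02 and 9.69. IL1A, at 12.38 and 12.48, and IL18, at 11.55 and 11.47, were close in the libraries. IL6, TNF, CCL2 and CXCL10 were at the floor in both. Of the 16 genes, 13 were lower in replicate 2, with a median difference of -0.84 over the 16, and 5 by over 1 log2 unit. Among all entries 110 of 11616 (0.947%) were lower in replicate 2 by over 1 log2 unit. In either direction, 4.55% of entries at levels of 5 to 6 differed by over 1 log2 unit, and 0.83% at 8 to 10. This list too was chosen with earlier results of these data known, so its counts test nothing.

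**Figure D5:**
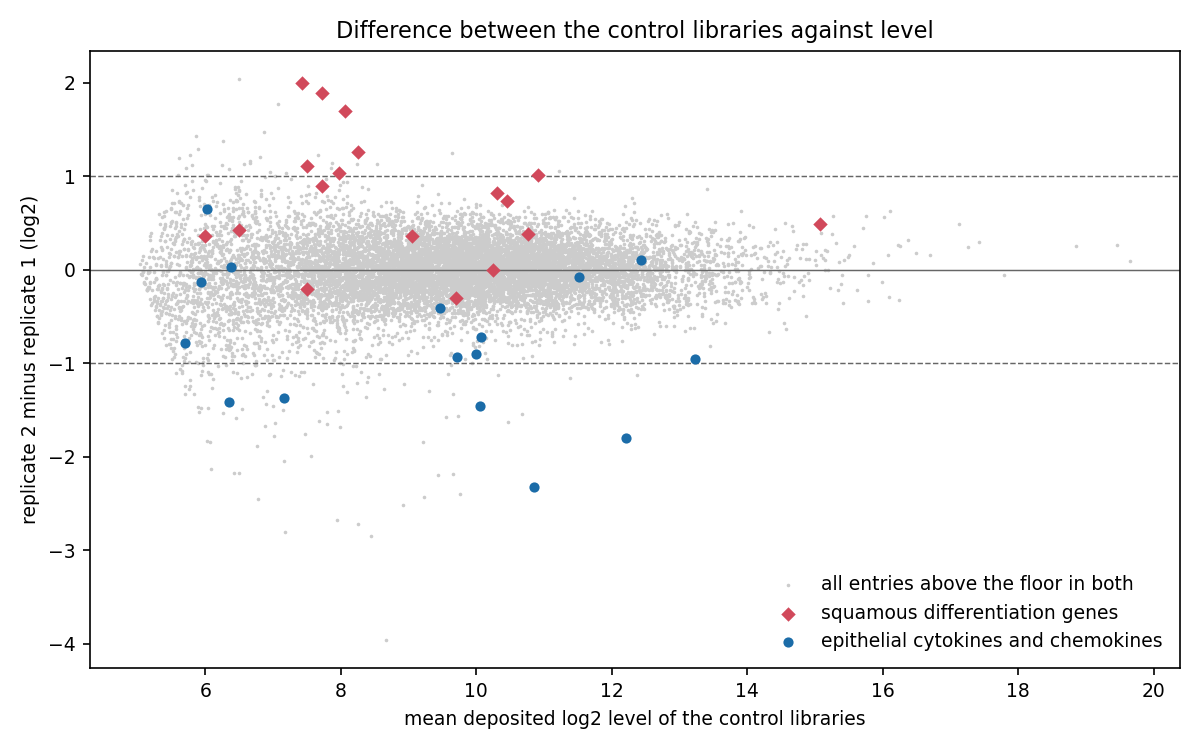
Difference of deposited log2 values, replicate 2 minus replicate 1 (vertical axis), against the mean level (horizontal axis) for all entries above the floor in both control libraries (grey), with squamous differentiation genes as diamonds and cytokines and chemokines as circles, and dashed lines at 1 and -1. Squamous genes lie mostly above 0 (15 of 18) and cytokines mostly below (13 of 16).

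The 2 libraries otherwise lay close together. The median size of the difference was 0.19 log2 units and the 95th percentile 0.65, with a median difference of -0.005. Across the 11616 entries, which are not independent replicates, Pearson's r was 0.986 and Spearman's rho 0.987. Of the 100 highest entries in each library 90 were shared, and of the 1000 highest 903. The spread depended on level, with a median size of 0.32 between 5 and 6 and of 0.16 between 10 and 12. The lower depth estimate belongs to replicate 1, and its part in the differences was not tested. With 1 library per batch, a difference between the libraries has no replicate check and is given without a p-value, and the batch, the culture and the library cannot be told apart.

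Among entries with a mean level of at least the median, those higher in replicate 2 by the widest margin were A2ML1, a protease inhibitor of stratified epithelium, at 9.02 and 10.27, INHBA, SPRR1B and KRT14. LAD1, ladinin of the basement membrane zone, at 11.91 and 12.69, and KRT16, at 10.08 and 10.82, followed. Those lower in replicate 2 were led by HLA-B, IL8, SPARC and CXCL1. FADS2, a fatty acid desaturase, was at 11.28 and 9.65, and LPHN2, an adhesion receptor, at 10.51 and 8.94. TFPI, which inhibits tissue factor, was at 11.44 and 9.90, and CCL20, a chemokine, at 10.78 and 9.33. At any level the widest gaps were those of SERPINA3, an acute-phase protease inhibitor, at 10.65 and 6.69, and in the other direction MYH14, a non-muscle myosin, at 5.47 and 7.51. Among these genes, KRT6B was at 9.90 and 10.72, MICAL2, an actin oxidase, at 11.97 and 12.68, and the adaptor gene TICAM1 at 9.44 and 10.20. The transporter genes ABCC2, with a difference of -1.33 from 10.33 in replicate 1, and ABCC3, at 11.97 and 10.81, were lower in replicate 2.

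The highest entries included mitochondrial transcripts and matrix, cytoskeletal and amino acid transport genes. The 10 highest entries held 11.6% and 13% of the summed linear signal, the 1000 highest 54.8% and 55.8%, and 765 and 715 entries sufficed for 50% of it. The deposited scale opened with BC018860 at 19.61 and 19.70, an entry that could not be matched to a gene, and held cytochrome b at 17.28 and 17.57. Neither had a transcript length, so neither has a rank per kilobase. Per kilobase the highest after S100A2 were ACTB, beta-actin, at 16.21 and 16.54 on the deposited scale, and HSPA8, a constitutive chaperone, at 16.41 and 16.58. SLC7A5, which imports large neutral amino acids, was at 16.89 and 17.38 and ranked 5. SLC3A2, its obligate heavy chain, was at 15.17 and 15.45 and ranked 19.

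S100 proteins, a family of small calcium-binding proteins, took several of the next places, with S100A6 at 14.35 and 14.45 and S100A11 at 13.27 and 13.79. In all, 13 of 18 S100 genes were above the floor in both libraries. S100A8 and S100A9, which form calprotectin in stressed epithelium, were at 10.35 and 10.40 and at 11.41 and 11.46. Of 13 clade B serpins, 8 were above the floor, led per kilobase by SERPINB5, maspin, at 13.73 and 14.06. All 28 cytoskeleton genes with an entry and 18 of 24 glycolysis genes were above the floor. ENO1, enolase, was at 15.42 and 15.58 and LDHA, lactate dehydrogenase, at 15.05 and 15.18. Of the glycolytic genes HK3, PKLR and LDHC, isoforms of other tissues, were at the floor in both.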

How the data were processed

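The study sequenced 8 libraries, of which the 2 control libraries were read here. The authors deposited 1 log2 value per gene entry and library, with values under 5 set to 5. Per the submitters' processing notes TopHat and hg19 were used, without versions. The sources used here name no counter, annotation or scaling. The series table and the per-library files held the same values for 29991 of 29991 entries, and 0 columns were left unmapped. Counts were not used here, so no count model was run, and with 1 group of 2 libraries no test was run.

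Levels per kilobase subtract log2 of the longest basic transcript in GENCODE 29, matched by symbol or RefSeq synonym (96.4% of entries above the floor in both). For a repeated symbol the highest entry was taken. An alternative with the principal isoform's length was added after seeing the data. Depth was estimated from how evenly linear values from 32 to 80 were spaced. The procedure was tried on simulated libraries whose values were exact multiples of a preset spacing near those found. That trial does not check the estimates for the less regular values of the control libraries. Promoters came from RefSeq (GRCh38.p14). Python 3.11.15, pandas 2.3.3 and numpy 2.4.6 were used.

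The text names the 4 markers, the highest entries on each scale, up to 6 highest members of each of 37 lists and 20 symbol families, members of lineage lists at the floor, and the 10 largest differences in each direction among entries at or above the median level. Other genes named for their role were chosen after their values were seen. The members and lists were chosen with earlier results of these data known. Integrin symbols include a few binding proteins. The values of some genes that this rule takes are not reported here.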

Additional observations from a re-analysis of the deposited data

How the results depend on the processing

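The number of entries above the floor lay between 10062 (above 7 in both libraries) and 12066 (above the floor in at least 1), with 11756 and 11926 when each control library was left out in turn, and the median size of the difference between libraries was 0.176 among entries above 7. Entries differing by over 1 log2 unit numbered 145, or 49 among those above 7 in both. Of the 57 lists and families, the count above the floor moved by over 1.5 times in 9 with a minimum of 7 (HOXC from 5 to 1, cytokines from 16 to 10), in 1 with a minimum of 6 (HOXB, from 5 to 2), in 3 when 1 library sufficed, and in 2 and 1 without replicate 1 or 2. The share of entries below a marker changed with the length scale. Per kilobase and then on the deposited scale it was 99.94% and 99.88% for KRT5, 98.97% and 97.6% for KRT14, 67.4% and 77.2% for TP63, and 92.5% and 96.1% for CDH1. Leaving out either library gave 99.91% to 99.96%, 98.4% to 99.3%, 65.4% to 70.3% and 91.8% to 93.5%. No paired analysis was possible because a single group was described and no test was made. The floor, at an estimated 16 and 33.4 reads, limits what can be said of low genes.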

Other observations

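Noncoding RNA made up a small part of what was above the floor. Of 808 entries matched to long noncoding RNA genes, 103 (12.7%) were above it in both libraries, against 57.5% of protein-coding entries. NEAT1, the scaffold of paraspeckles, was at 14.65 and 14.29, and MALAT1, a nuclear speckle RNA, was at 14.66 in replicate 1, with a mean of 14.33. C17orf76-AS1 was at 12.76 and 12.82, and GAS5, a host of small nucleolar RNAs, was at 12.60 and 12.19. MIR205HG, the host gene of a microRNA of basal epithelium, was at 11.16 and 10.94. Antisense and host transcripts cannot be told from overlapping genes in libraries without strand. Of 1175 microRNA entries 1 was above the floor in both, in libraries made for polyadenylated RNA.

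Of 19 connexins, which form gap junctions, 7 were above the floor in both libraries. GJB5 was at 10.92 and 11.03, while GJA1, the connexin of myoepithelium and many other cells, was at the floor in both. Of 24 matrix metalloproteinases, 9 were above it, led per kilobase by MMP14, which is anchored in the membrane, at 12.62 and 12.71, and MMP28 at 11.39 and 11.62. MMP1, MMP3 and MMP13 were at the floor in both. Of 17 kallikrein entries, 4 were above it in both and 3 in replicate 2 alone, so that without replicate 1 the count is 7. Among all 29991 entries, 140 were above the floor in replicate 2 alone. KLK10 was at 11.26 and 11.29.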
